A study of Mus musculus with 12 samples.

Results

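The core circadian clock loop was represented by 10 genes, Arntl, Clock, Npas2, Cry1, Cry2, Per1, Per2, Per3, Nr1d1 and Nr1d2, chosen by symbol from the 33641 genes listed for each of 12 mouse heart samples. All 10 were found in every sample. The samples formed 4 groups of 3, the left (LV) and right ventricle (RV) of WT-PLN and of R14del-PLN hearts, from mice labelled C57BL/6J at 12 to 14 weeks of age. Every mouse carried the human coding sequence of phospholamban, the inhibitor of the cardiac calcium pump SERCA2a, knocked in at the start codon of the mouse Pln gene. Per the study's methods, the founders were chimeras of 129/Sv-CP and C57Bl/6J bred to Sox2-Cre mice, a line in which Cre acts in the early embryo. The wild-type samples carried human WT-PLN. The samples titled as knock-out are R14del-PLN by their genotype label, which per the methods is the heterozygous state with a WT-PLN allele beside the mutant allele that lacks arginine 14. No treatment is labelled, hearts were frozen on removal, and the hour at which mice died was not given in the sources used here.

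The clock of mammalian cells is a loop of transcription and repression. ARNTL (BMAL1) pairs with CLOCK or NPAS2 and binds E-box sequences in the promoters of the Per and Cry genes and of Nr1d1 and Nr1d2. PER and CRY proteins accumulate, enter the nucleus and repress ARNTL and CLOCK, while the nuclear receptors encoded by Nr1d1 and Nr1d2 (REV-ERBα and REV-ERBβ) occupy ROR elements and repress Arntl, so that Arntl peaks roughly opposite to Nr1d1. In mouse peripheral tissues Nr1d1 peaks before Per3, Per3 before Per1 and Per2, and Cry1 and Arntl come later, while Clock varies little over the day. In the heart this loop paces metabolism and ion channel expression in cardiomyocytes.

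The promoter sequences below are shown because they hold the elements through which the arms of the loop meet. They come from RefSeq for build GRCm38.p6 and run 5′ to 3′ on the gene's own strand, from 250 bases before an annotated start to 50 bases after it. Such 300-base windows were given for 9 of the 10 genes, 13 windows in all. Capitals mark the motif in each: the ROR element TAGGTCA in Arntl (chr7:113207261-113207560, plus strand), the E-box CACGTG in Per1 (chr11:69098699-69098998, plus strand), the E-prime box, CACGTT read on the other strand, in Nr1d1 (chr11:98775328-98775627, minus strand), and a pair of D-boxes, TTATGTAA, in Per3 (chr4:151044616-151044915, minus strand).
Arntl: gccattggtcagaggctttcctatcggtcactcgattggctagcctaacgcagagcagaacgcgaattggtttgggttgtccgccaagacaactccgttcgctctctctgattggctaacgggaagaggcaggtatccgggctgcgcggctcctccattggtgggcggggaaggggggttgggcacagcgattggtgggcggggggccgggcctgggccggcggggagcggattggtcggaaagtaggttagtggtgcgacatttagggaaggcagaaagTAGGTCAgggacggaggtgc
Per1: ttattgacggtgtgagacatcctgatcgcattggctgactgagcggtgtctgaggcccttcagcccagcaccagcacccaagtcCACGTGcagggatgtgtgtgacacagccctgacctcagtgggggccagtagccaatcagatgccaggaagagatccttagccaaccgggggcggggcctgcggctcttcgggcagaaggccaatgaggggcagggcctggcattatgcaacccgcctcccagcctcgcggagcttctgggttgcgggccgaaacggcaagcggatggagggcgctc
Nr1d1: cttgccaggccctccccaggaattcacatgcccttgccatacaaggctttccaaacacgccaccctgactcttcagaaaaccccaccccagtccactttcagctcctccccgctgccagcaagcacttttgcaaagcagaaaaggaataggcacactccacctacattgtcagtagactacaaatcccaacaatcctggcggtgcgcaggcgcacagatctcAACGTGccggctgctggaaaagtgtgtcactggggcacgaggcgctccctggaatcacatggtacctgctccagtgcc
Per3: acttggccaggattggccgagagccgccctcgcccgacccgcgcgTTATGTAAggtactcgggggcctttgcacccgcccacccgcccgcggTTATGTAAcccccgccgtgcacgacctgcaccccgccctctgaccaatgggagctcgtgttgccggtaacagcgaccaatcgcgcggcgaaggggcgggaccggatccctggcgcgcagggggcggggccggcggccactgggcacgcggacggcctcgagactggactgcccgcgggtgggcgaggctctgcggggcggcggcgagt

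The Per1 window surrounds a start that lies inside the annotated gene. The Arntl element began 30 bases after the start, the Per1 E-box 166 bases before it and the Nr1d1 E-prime box 28 bases before it, and the Per3 D-boxes began 205 and 158 bases before it. Both strands were searched. Of 32851 windows of the same length over all promoters, 7.15% held CACGTG, 4.68% CACGTT, 6.45% a ROR element (TAGGTCA or TGGGTCA) and 1.06% a D-box (TTATGTAA or TTACGTAA). Cry1 held an E-box 60 bases and an E-prime box 79 bases before its start, and Cry2 an E-prime box 166 bases before its start. No window of Clock, Npas2 or Nr1d2 held any of these letters, which says nothing about elements outside the window. The windows of a pair of Per1 starts, and those of Cry1 and Cry2, held the short cAMP-response core TGACG, found in 20.8% of all windows. No window of these 9 genes held a full cAMP response element (TGACGTCA, 1.79% of windows) or the palindromic glucocorticoid response element (0.475%).

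Levels are given in TPM, a share of all transcripts that the authors scaled to gene length, so that genes can be set side by side. The mean over the 12 samples was 30.1 TPM for Nr1d2, 16.5 for Nr1d1, 13.5 for Per1, 10.8 for Cry2, 5.79 for Per3, 4.83 for Per2, 3.97 for Cry1, 3.84 for Clock, 0.509 for Arntl and 0.309 for Npas2. The order was firm at 3 places, since Nr1d2 was above Nr1d1, Cry2 above Per3 and Clock above Arntl in 12 of 12 samples. Neighbours elsewhere crossed: Nr1d1 was above Per1 in 8 of 12 samples, Per1 above Cry2 in 6, Per3 above Per2 in 10, Per2 above Cry1 in 8, Cry1 above Clock in 8 and Arntl above Npas2 in 10. Against a median of 5.92 TPM over the 12526 genes tested, the nuclear receptors, Per1 and Cry2 were above the middle of the table and the other 6 were below it. Tissue RNA does not tell fewer cells of a type from less RNA per cell.

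**Figure D1:**
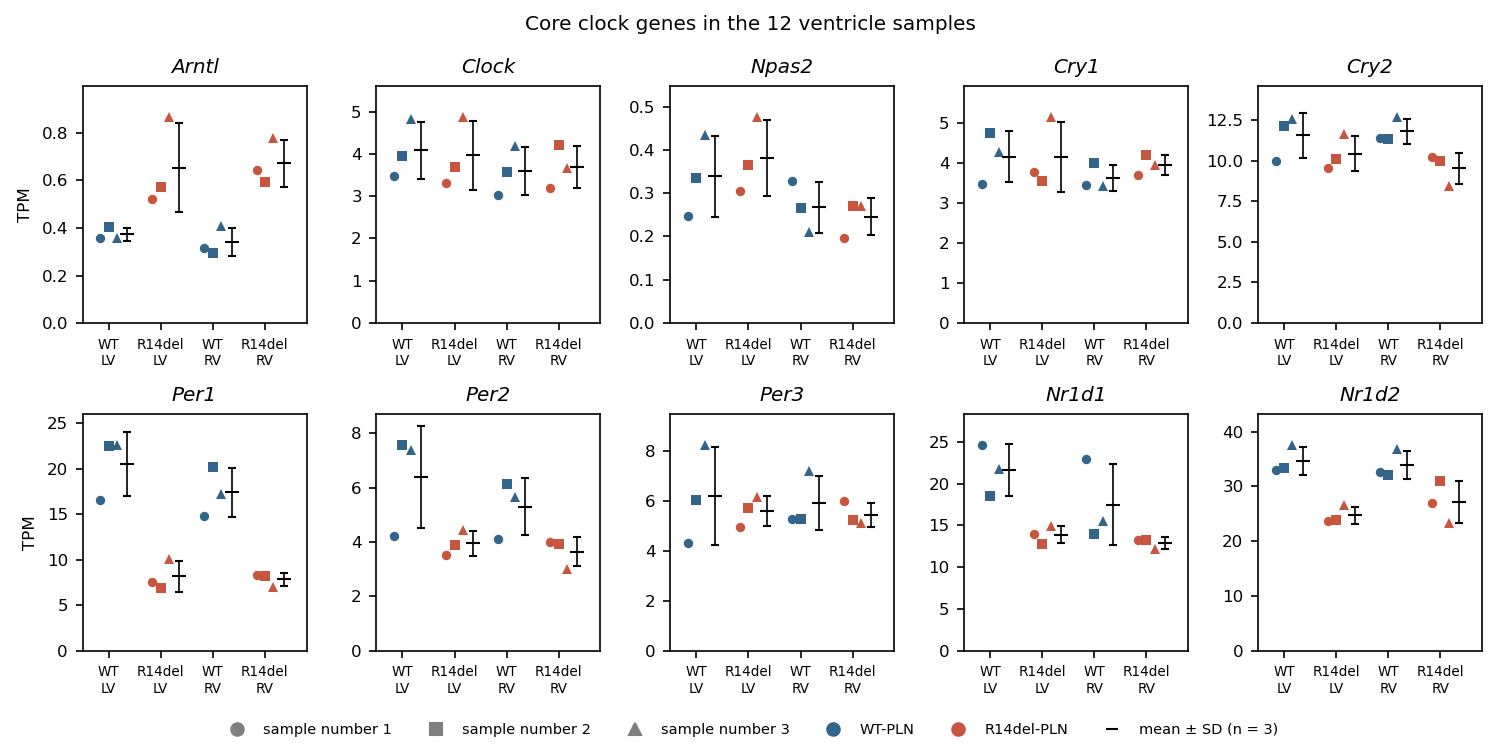
Level of each clock gene in TPM (linear axis from 0, a scale per gene) in the 3 samples of each group, with the marker giving the sample number and the black bar the mean ± SD. Per1 separates the genotypes in both ventricles, with R14del-PLN samples between 6.92 and 10.1 TPM and WT-PLN samples between 14.8 and 22.7 TPM, while Arntl lies higher in R14del-PLN samples and Clock, Cry1 and Per3 overlap.

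Facts of the whole table bear on these values. TPM carry no record of sequencing depth, and 17924 to 18879 genes were above 0 in a sample. Mitochondrially encoded genes took 37.3 to 54.5% of the TPM, with the lowest share in the LV sample of R14del-PLN numbered 3, so that each TPM value depends on that share. The methods give only male mice, but the WT-PLN samples numbered 1 stood apart: the sum of 4 Y-linked genes was 0.284 TPM in LV and 0.250 TPM in RV, against 43.5 to 63.7 TPM in the 6 R14del-PLN samples. Samples with almost no Y-linked RNA were thus in the WT-PLN groups only, so this trait was not balanced between the genotypes. The RV sample of R14del-PLN numbered 3 came from a different sequencing run than the other 11, by its file's run label. The values of Per1, Per2, Arntl, Nr1d1, Nr1d2 and the gene lists without these samples stand beside their results. The labelled tissue matched its markers, since 6 ventricular cardiomyocyte genes summed to 28710 to 44202 TPM in every sample. Atrial markers were uneven. The atrial myosin light chain gene Myl7 ran from 0.512 to 299 TPM in WT-PLN LV and from 1.35 to 320 TPM in WT-PLN RV, but from 0.190 to 0.440 TPM in R14del-PLN LV and from 5.75 to 212 TPM in R14del-PLN RV. Of the 6 atrial markers, Sln was listed at 0 in 1 sample and Bmp10 in 2.

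The question put to the genotypes was whether R14del-PLN altered each clock gene in LV and in RV. Per1 was the only clock gene that passed the test, and it fell in both ventricles. Arntl was higher in every R14del-PLN sample than in any WT-PLN sample of the same ventricle, and Nr1d1 and Nr1d2 were lower in the same sense, but none of the 3 passed. Clock, Npas2, Cry1 and Per3 overlapped between the genotypes in both ventricles. A call required 0.05 or less for the Benjamini-Hochberg adjusted p of limma, taken over all tested genes, together with a change of 1.5-fold or more. The fold changes are on that log2(TPM + 1) scale, which understates changes of low genes such as Arntl. In LV, 1 of 10 clock genes was called lower and 0 higher, against a background of 0.423% of tested genes called lower and 0.0958% called higher. In RV, 1 of 10 was called lower and 0 higher, against 0.2% and 0.0719%. At an unadjusted p under 0.05 were 5 clock genes in LV, 4 of them lower, and 6 in RV, 5 of them lower, against 9.60% of tested genes in LV (7.85% lower) and 6.22% in RV (3.40% lower). The ranges of the 3 samples did not overlap for 3 genes lower and 1 higher in LV, against 8.47% and 2.48% of tested genes, and for 5 lower and 1 higher in RV, against 5.79% and 5.19%. Ranges were apart in both LV and RV for 4 genes, with Per1, Nr1d1 and Nr1d2 lower (2.38% of tested genes were lower in both) and Arntl higher (1.23% were higher in both). The higher gene in each of these counts was Arntl, which passed the limit of 0.5 TPM for testing only through its R14del-PLN groups. Its place beside these shares is therefore no support. The ventricles are not independent here, because WT-PLN samples with the same number varied together.

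**Figure D2:**
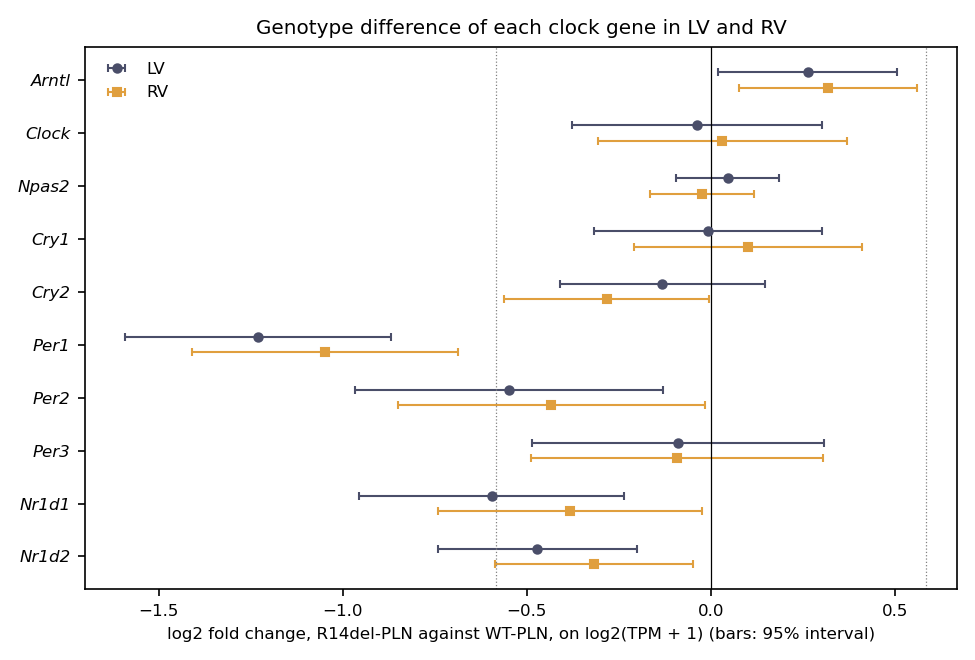
Log2 fold change of R14del-PLN against WT-PLN on log2(TPM + 1) for each clock gene, circles for LV and squares for RV, with 95% intervals from limma and dotted lines at a fold of 1.5 in either direction. Per1 lies furthest from 0, at -1.23 in LV and -1.05 in RV, and the intervals of Clock, Npas2, Cry1 and Per3 include 0 in both ventricles.

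Among the activators, Arntl lies on chromosome 7 from 113207465 to 113314126 (GRCm38, plus strand) and encodes the partner that the loop cannot run without. In LV, Arntl was at 0.356, 0.405 and 0.358 TPM in the WT-PLN samples and at 0.520, 0.572 and 0.867 TPM in the R14del-PLN samples. In RV, it was at 0.316, 0.296 and 0.408 TPM in WT-PLN and at 0.642, 0.591 and 0.781 TPM in R14del-PLN samples. All 6 R14del-PLN samples thus lay above all 6 WT-PLN samples, at levels under 1 TPM throughout. The ratio of mean TPM was 1.75 in LV and 1.98 in RV. The log2 fold change was 0.26 (SE 0.11, 95% interval 0.02 to 0.50, adjusted p = 0.468) in LV and 0.32 (SE 0.11, 95% interval 0.08 to 0.56, adjusted p = 0.547) in RV, so that Arntl did not pass in either. With a mean of 0.509 TPM, Arntl passed the lower limit of 0.5 TPM set for testing only through the R14del-PLN groups, whose means were 0.653 TPM in LV and 0.671 TPM in RV, against 0.373 and 0.340 TPM in WT-PLN hearts. Its place beside the shares of tested genes above rests on that. Without both WT-PLN samples numbered 1, the log2 fold changes of Arntl were 0.25 in LV and 0.31 in RV, and without the R14del-PLN RV sample 3 the RV value was 0.27.

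Clock, on chromosome 5 from 76209868 to 76304792 (minus strand), encodes the usual partner of ARNTL. It was at 3.48, 3.96 and 4.82 TPM in WT-PLN LV and at 3.32, 3.70 and 4.87 TPM in R14del-PLN LV. The RV values were 3.03, 3.58 and 4.19 TPM in WT-PLN and 3.20, 4.20 and 3.67 TPM in R14del-PLN samples. The ranges nearly coincided, with a log2 fold change of -0.04 (95% interval -0.38 to 0.30) in LV, whose sign turned under other scalings, and 0.03 (95% interval -0.31 to 0.37) in RV. Clock contains the pseudogene Ube2n-ps1 on the same strand, listed at a mean of 33.3 TPM, and how shared reads were counted is not stated. Npas2, on chromosome 1 from 39193731 to 39363236, encodes a paralog that can stand in for CLOCK. Its mean of 0.309 TPM was under the limit for testing, so its values come from the model fitted to all 22948 genes above 0. It ranged from 0.248 to 0.435 TPM in WT-PLN LV, 0.305 to 0.476 in R14del-PLN LV, 0.210 to 0.328 in WT-PLN RV and 0.196 to 0.271 in R14del-PLN RV. The log2 fold changes were 0.05 (95% interval -0.10 to 0.19) in LV and -0.02 (95% interval -0.17 to 0.12) in RV.

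Among the period repressors, Per1 lies on chromosome 11 from 69095217 to 69109960 (plus strand), and its E-box is shown above. Besides its place in the loop, Per1 is known to be induced within a short time by glucocorticoids and by cAMP and calcium signalling. In LV, Per1 was at 16.5, 22.5 and 22.7 TPM in the WT-PLN samples and at 7.55, 6.92 and 10.1 TPM in the R14del-PLN samples. In RV, it was at 14.8, 20.2 and 17.3 TPM in WT-PLN and at 8.30, 8.25 and 7.01 TPM in R14del-PLN samples. Every R14del-PLN sample was below every WT-PLN sample, across ventricles too. Mean TPM in R14del-PLN hearts was 0.399 of that in WT-PLN hearts in LV (8.19 ± 1.68 against 20.5 ± 3.48 TPM, SD, n = 3 each) and 0.451 in RV (7.86 ± 0.729 against 17.4 ± 2.71 TPM, SD, n = 3 each). The log2 fold change was -1.23 (SE 0.17, 95% interval -1.59 to -0.87, adjusted p = 0.00440) in LV and -1.05 (SE 0.17, 95% interval -1.41 to -0.69, adjusted p = 0.0168) in RV. The RV call was lost without WT-PLN sample 2 (log2 fold change -0.94, adjusted p = 0.118), without WT-PLN sample 3 (-1.05, 0.0924), without R14del-PLN sample 3 of the other sequencing run (-0.98, 0.0935), and with no lower limit on expression (-1.05, 0.0794). Without both WT-PLN samples numbered 1, the fold changes were -1.37 (adjusted p = 0.00149) in LV and -1.16 (adjusted p = 0.00633) in RV.

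Per2, on chromosome 1 from 91415982 to 91459324 (minus strand), encodes the period protein whose loss disturbs the rhythm most in mice. In LV it was at 4.24, 7.59 and 7.39 TPM in WT-PLN and at 3.52, 3.91 and 4.45 TPM in R14del-PLN samples. The RV values were 4.13, 6.14 and 5.66 TPM in WT-PLN and 3.99, 3.93 and 3.02 TPM in R14del-PLN samples. WT-PLN sample 1 was the lowest of its group in both ventricles, and in LV it lay within the R14del-PLN range. The log2 fold change was -0.55 (SE 0.19, 95% interval -0.97 to -0.13, adjusted p = 0.335) in LV and -0.43 (95% interval -0.85 to -0.02, adjusted p = 0.784) in RV. Without WT-PLN LV sample 1, the LV value was -0.78 and Per2 was called (adjusted p = 0.0465), and without both WT-PLN samples numbered 1 the adjusted p was 0.0240.

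Per3, on chromosome 4 from 151003652 to 151044665 (minus strand), is the period gene that the loop can spare. It was at 4.31, 6.03 and 8.25 TPM in WT-PLN LV and at 4.97, 5.70 and 6.16 TPM in R14del-PLN LV. The RV values were 5.28, 5.29 and 7.18 TPM in WT-PLN and 5.99, 5.25 and 5.11 TPM in R14del-PLN samples. The R14del-PLN range lay inside the WT-PLN range in LV and nearly so in RV. The log2 fold change was -0.09 in both ventricles (95% intervals -0.49 to 0.31 in LV and -0.49 to 0.30 in RV), and in LV its sign turned under other scalings. Per3 overlaps Camta1 on the same strand, whose mean was 67.6 TPM, with log2 fold changes of -0.05 in LV and -0.24 in RV.

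How the period genes stood to each other was examined as log2 ratios of (TPM + 1) within each sample, chosen after the values were seen. The ratio of Per1 to Per3 was 1.35 to 1.74 in WT-PLN and 0.24 to 0.63 in R14del-PLN samples of LV, and 1.16 to 1.75 and 0.39 to 0.57 in RV. The difference of means was -1.14 in LV and -0.96 in RV, and -1.08 and -0.999 without both WT-PLN samples numbered 1. The ratio of Per2 to Per3 differed by -0.46 in LV and -0.34 in RV, and that of Per1 to Per2 by -0.68 and -0.62. In all 6 of these comparisons the genotypes did not overlap, and the 2-sided exact permutation p was 0.1, the smallest that 3 against 3 samples allow (0.143 after Benjamini-Hochberg adjustment over 10 ratios), so this design could not reach 0.05. They are not 6 separate results. On the log scale, Per1 to Per3 is the sum of Per1 to Per2 and Per2 to Per3, and Per1 alone already separated the genotypes. No share over other gene pairs was computed.

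The cryptochromes are the strongest repressors of ARNTL and CLOCK. Cry1, on chromosome 10 from 85131700 to 85185064 (minus strand), was at 3.46, 4.74 and 4.28 TPM in WT-PLN LV and at 3.76, 3.54 and 5.15 TPM in R14del-PLN LV. The RV values of Cry1 were 3.45, 4.01 and 3.42 TPM in WT-PLN and 3.70, 4.21 and 3.95 TPM in R14del-PLN samples. The samples overlapped, with log2 fold changes of -0.0076 (95% interval -0.32 to 0.30) in LV, whose sign turned under other scalings, and 0.10 (95% interval -0.21 to 0.41) in RV. Cry2, on chromosome 2 from 92403646 to 92434043 (minus strand), was at 9.95, 12.2 and 12.6 TPM in WT-PLN LV and at 9.54, 10.1 and 11.7 TPM in R14del-PLN LV. In RV it was at 11.4, 11.4 and 12.7 TPM in WT-PLN and at 10.2, 9.96 and 8.46 TPM in R14del-PLN samples. Its RV samples did not overlap, with a log2 fold change of -0.28 (SE 0.13, 95% interval -0.56 to -0.0059, adjusted p = 0.792), while those of LV did, at -0.13 (95% interval -0.41 to 0.15, adjusted p = 0.816). The log2 ratio of Cry1 to Cry2 differed by 0.12 in LV (exact permutation p = 0.2) and by 0.38 in RV (exact permutation p = 0.1).

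The nuclear receptor genes form the arm that represses Arntl. Nr1d1 lies on chromosome 11 from 98767932 to 98775333 (minus strand), with the E-prime box shown above. In LV it was at 24.7, 18.5 and 21.8 TPM in WT-PLN and at 14.0, 12.8 and 14.9 TPM in R14del-PLN samples. Its RV values were 23.0, 13.9 and 15.6 TPM in WT-PLN and 13.3, 13.3 and 12.1 TPM in R14del-PLN samples. The groups did not overlap, but in RV the lowest WT-PLN sample was close to the highest R14del-PLN samples, and without WT-PLN RV sample 1 the log2 fold change was -0.18 in place of -0.38. The LV value was -0.50 (adjusted p = 0.116) without both WT-PLN samples numbered 1. The log2 fold change was -0.60 (SE 0.17, 95% interval -0.96 to -0.24, adjusted p = 0.203) in LV and -0.38 (SE 0.17, 95% interval -0.74 to -0.02, adjusted p = 0.764) in RV. It overlaps Thra, whose mean was 25.0 TPM on the opposite strand, with log2 fold changes of -0.10 in LV and -0.06 in RV. Whether reads were counted by strand is not stated.

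Nr1d2, on chromosome 14 from 18204054 to 18239127 (minus strand), was the most abundant clock gene. In LV it was at 33.1, 33.3 and 37.6 TPM in WT-PLN and at 23.7, 23.9 and 26.5 TPM in R14del-PLN samples. Its RV values were 32.6, 32.2 and 36.8 TPM in WT-PLN and 27.1, 31.0 and 23.3 TPM in R14del-PLN samples. Neither ventricle overlapped, and the LV gap was the wider. The log2 fold change was -0.47 (SE 0.12, 95% interval -0.74 to -0.20, adjusted p = 0.163) in LV and -0.32 (SE 0.12, 95% interval -0.59 to -0.05, adjusted p = 0.657) in RV. The LV adjusted p reached 0.0412 without mitochondrially encoded genes and 0.0499 after quantile normalization, at fold changes of -0.46 and -0.36 that stayed under the fold of 1.5. The log2 fold changes of Nr1d2 were -0.50 in LV and -0.34 in RV without both WT-PLN samples numbered 1, and without the R14del-PLN RV sample 3 the RV value was -0.22 (adjusted p = 0.995). Nr1d2 has a near-identical copy in the annotation, AC170187.1, so its level is uncertain. The log2 ratio of Nr1d1 to Nr1d2 overlapped between genotypes, with differences of -0.12 in LV (exact permutation p = 0.6) and -0.07 in RV (exact permutation p = 0.9).

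With the phase of each gene in mind, Arntl was set against Nr1d1 and Per3, which peak roughly opposite to it. The log2 ratio of Arntl to Nr1d1, each as TPM + 1, was -4.24, -3.79 and -4.07 in WT-PLN LV and -3.31, -3.13 and -3.09 in R14del-PLN LV. In RV it was -4.19, -3.52 and -3.56 in WT-PLN and -3.12, -3.16 and -2.88 in R14del-PLN samples. All R14del-PLN samples lay above all WT-PLN samples, by 0.86 in LV and 0.70 in RV on average, and by 0.75 and 0.49 without both WT-PLN samples numbered 1. Within each ventricle this separation was fixed in advance, because Arntl alone was higher and Nr1d1 alone lower without overlap. It is therefore not a further result. The ratio of Arntl to Per3 differed by 0.35 in LV, where WT-PLN sample 1, at -1.97, lay within the R14del-PLN range of -2.09 to -1.94, and by 0.41 in RV. That overlap depended on the pseudocount: with 0.1 in place of 1, the ratio in LV ran from -4.19 to -3.27 in WT-PLN and from -3.11 to -2.69 in R14del-PLN samples, without overlap, and differed by 0.74. With the pseudocount of 1 and without both WT-PLN samples numbered 1, it differed by 0.54 in LV and 0.46 in RV. Of other genes that peak in the same part of the day as Nr1d1 or soon after, the genotype difference was -0.47 in LV and -0.32 in RV for Nr1d2, -0.09 in both for Per3, -0.83 and -0.77 for Ciart, -0.41 and -0.39 for Hlf, and -0.31 and -0.28 for Dbp, an output gene driven by E-boxes. Tef, from the same list of output factors as Hlf and Dbp, was at -0.23 in LV and -0.08 in RV. The rise of Arntl was not shared by Cry1, which also comes later in the day, at -0.0076 in LV and 0.10 in RV. Npas2 was at 0.05 in LV and -0.02 in RV, and Nfil3, from the list of output factors, at -0.29 and -0.11. None of them was called. The phase of a sample cannot be read from a single time point, and the part of the hour of death in these values was not tested.

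**Figure D3:**
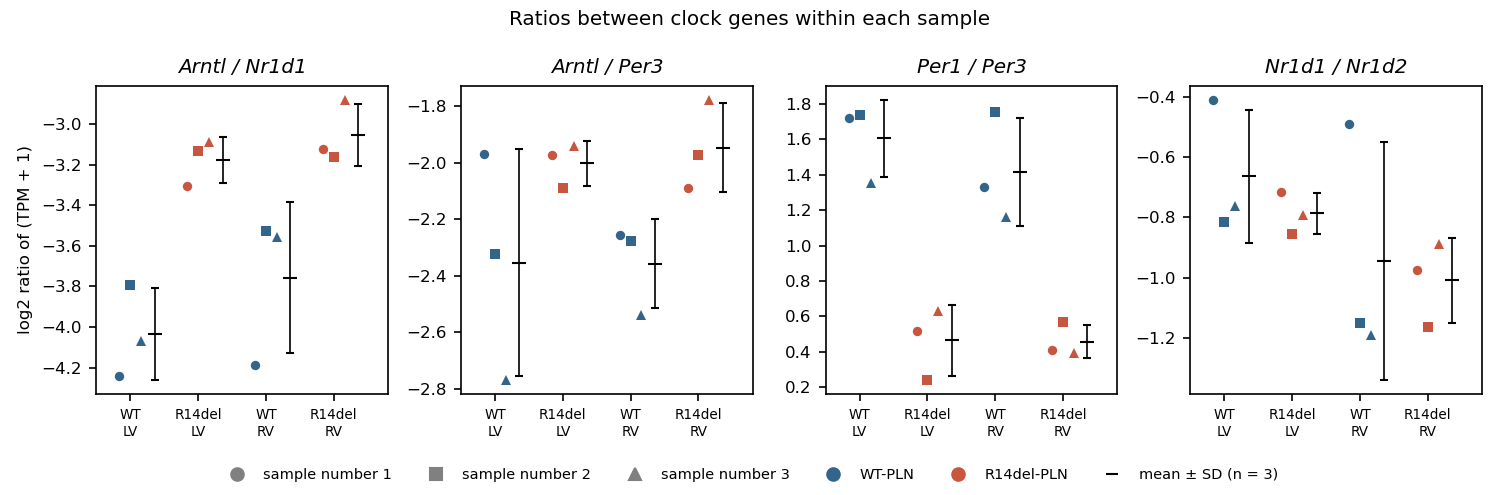
Log2 ratios between clock genes, each as TPM + 1, in the 3 samples of each group (marker: sample number; black bar: mean ± SD; the axes do not start at 0). The ratios of Arntl to Nr1d1 and of Per1 to Per3 separate R14del-PLN from WT-PLN samples in both ventricles, while Nr1d1 to Nr1d2 overlaps and, with this pseudocount of 1, Arntl to Per3 overlaps in LV. For Arntl to Nr1d1 the separation follows from the ranges of each gene alone. The ratio of Per1 to Per3 was chosen after the values were seen.

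The WT-PLN samples numbered 1 were also apart within their own groups. They had the lowest Clock, Per1, Per2 and Per3 and the highest Nr1d1 of the WT-PLN samples in both ventricles. Across the 10 clock genes, the same number was highest in LV and RV for 7 genes in WT-PLN hearts and for 1 gene in R14del-PLN hearts. The number with the lowest value was shared by the ventricles for 5 genes in WT-PLN and 2 genes in R14del-PLN hearts. No share over all tested genes was computed for these counts, and the 10 genes are not independent. The counts therefore do not show a difference between the genotypes.

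The second question was whether the ventricles differed. No clock gene was called between RV and LV in WT-PLN hearts (0% of tested genes called) or in R14del-PLN hearts (0% called), with 0 and 1 clock genes at an unadjusted p under 0.05 in limma, against 1811 and 823 of all tested genes. Taken by the numbers that pair the WT-PLN samples, Clock, Cry1, Per1, Per2, Nr1d1 and Nr1d2 were lower in RV than in LV in all 3 pairs, as were 58.1% of tested genes. A block for each number within a genotype changed no clock gene's call. Ranges overlapped for all 10 in WT-PLN hearts, where 26.1% of tested genes did not overlap, and for 9 of 10 in R14del-PLN hearts, where 9.98% did not. The exception was Npas2, which was also the 1 clock gene at an unadjusted p under 0.05. It was under the limit for testing, so it is not part of the tested genes that these counts are set against. In the model fitted to all genes above 0, Npas2 was lower in RV of R14del-PLN hearts by a log2 fold change of -0.15 (95% interval -0.29 to -0.0076, adjusted p = 0.831). The lowest adjusted p in WT-PLN hearts was that of Nr1d1, at -0.31 (95% interval -0.67 to 0.05, adjusted p = 0.381). The median tested gene lay at -0.17 in this comparison and at 0.0051 after quantile normalization, and at -0.09 and 0.01 for genotype in LV, shifts against which small differences have to be read. After quantile normalization, Arntl, Clock, Cry1, Per3 and Nr1d2 turned from lower to higher in RV of WT-PLN hearts.

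The genotype difference was not shown to depend on the ventricle. The interaction was called for 0 of 10 clock genes (0% of tested genes), with 0 clock genes and 127 tested genes at an unadjusted p under 0.05 in limma. For Per1 the RV difference minus the LV difference was 0.18 (SE 0.24, 95% interval -0.33 to 0.69), and for Nr1d1 it was 0.21 (SE 0.24, 95% interval -0.30 to 0.72). These intervals are wide enough to hold sizeable differences between the ventricles.

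Other genes of the pathway were taken from lists. Of 10 output and secondary loop factors, 9 were expressed enough to be tested, and none was called in either ventricle by limma, with 3 in LV and 3 in RV at an unadjusted p under 0.05 (9.60% and 6.22% of tested genes). Bhlhe40 was called lower in LV without both WT-PLN samples numbered 1. Their median log2 fold change was -0.29 in LV and -0.28 in RV, against -0.09 and -0.0034 over all tested genes and -0.13 and -0.28 over the 9 clock genes tested. Ciart, which encodes a repressor of ARNTL and CLOCK, was the nearest to the threshold, at 10.6 to 12.4 TPM in WT-PLN LV and 4.36 to 7.96 in R14del-PLN LV (log2 fold change -0.83, adjusted p = 0.0575), and 10.1 to 11.1 and 5.04 to 6.87 TPM in RV (-0.77, adjusted p = 0.104). Next were Bhlhe40, a further repressor at E-boxes, in LV (-0.73, adjusted p = 0.223) and the D-box activator Hlf in RV (-0.39, adjusted p = 0.730). Bhlhe41, the paralog of Bhlhe40, had the opposite sign (0.21 in LV and 0.45 in RV, not called). Of 10 kinase, phosphatase and ubiquitin ligase genes that act on PER and CRY proteins, 9 were tested and none was called, with 1 in LV and 2 in RV at an unadjusted p under 0.05, against the same shares of tested genes, and medians of -0.20 and -0.07. The smallest p belonged to Ppp1cb, a phosphatase subunit, in LV (-0.38, adjusted p = 0.223), and to Csnk1e, which phosphorylates PER, and Ppp1cb in RV (-0.49 and -0.28, adjusted p = 0.649 and 0.671).

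Of 12 genes known as clock-controlled in heart or other tissues, 2 were called lower in LV, 1 in RV and none higher, against 0.423% and 0.2% of tested genes called lower. The medians were -0.29 and -0.18, against -0.09 and -0.0034 over all tested genes. Klf15, a regulator of cardiac metabolism and repolarization, ranged from 27.6 to 31.8 TPM in WT-PLN and from 12.5 to 17.0 TPM in R14del-PLN samples of LV (log2 fold change -1.02, adjusted p = 0.00553). In RV, Klf15 ranged from 27.9 to 31.7 TPM and from 12.6 to 17.4 TPM (-0.99, adjusted p = 0.00847). Cdkn1a, the cell cycle inhibitor p21, fell in LV (-1.57, adjusted p = 0.0198) and was at -1.42 in RV (adjusted p = 0.0507). The RV call of Klf15 was lost without the R14del-PLN RV sample 3, and without both WT-PLN samples numbered 1 Cdkn1a was called in RV too. Klf15 is also a known target of glucocorticoids and Cdkn1a of p53, so the list is not specific to the clock.

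Since Per1 also responds to other signals, genes of those responses are given beside it. All 9 glucocorticoid-induced genes had negative fold changes in both ventricles, with 6 called in LV and 3 in RV, where 0.423% and 0.2% of tested genes were called lower. Their medians were -1.20 and -1.14, against -0.09 and -0.0034 over all tested genes. Those called in LV were Tsc22d3 (-1.20, adjusted p = 0.00230), Zbtb16 (-1.30), Ddit4 (-1.56), Fkbp5 (-1.20), Klf9 (-0.67) and Mt2 (-1.84), and Tsc22d3 (-1.14, adjusted p = 0.00422), Zbtb16 (-1.26) and Ddit4 (-1.42) were called in RV. Without the R14del-PLN RV sample 3, 2 were called in RV, where 0.104% of tested genes were called lower. Without both WT-PLN samples numbered 1, 7 were called in LV and 5 in RV, against 1.70% and 0.605% of tested genes. Their summed level was 410 to 645 TPM in WT-PLN and 208 to 289 TPM in R14del-PLN samples of LV, and 420 to 530 and 183 to 239 TPM in RV, without overlap. All 11 immediate early genes also had negative fold changes, but none was called by limma (9 in LV and 6 in RV at an unadjusted p under 0.05, against 9.60% and 6.22% of tested genes), with medians of -1.49 and -1.19. Without both WT-PLN samples numbered 1, 7 were called lower in LV (Atf3, Dusp1, Egr1, Fos, Junb, Nr4a1 and Sik1) and 4 in RV (Atf3, Egr1, Nr4a1 and Sik1), where 1.70% and 0.605% of tested genes were called lower. The smallest p belonged to the phosphatase gene Dusp1 in both ventricles (-1.23, adjusted p = 0.208 in LV, and -1.17, adjusted p = 0.325 in RV), followed by the kinase gene Sik1 in LV (-1.77, adjusted p = 0.221) and the nuclear receptor gene Nr4a1 in RV (-2.70, adjusted p = 0.489). Their sum spread widely among WT-PLN samples, from 76.7 to 421 TPM in LV and 62.1 to 313 TPM in RV, against 51.6 to 73.4 and 45.7 to 51.3 TPM in R14del-PLN samples. Errfi1, of the glucocorticoid-induced list, also spread widely, from 5.57 to 71.3 TPM in WT-PLN LV. Both lists were chosen with earlier results of these data known, and neither list's part in the difference of Per1 was tested.

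**Figure D4:**
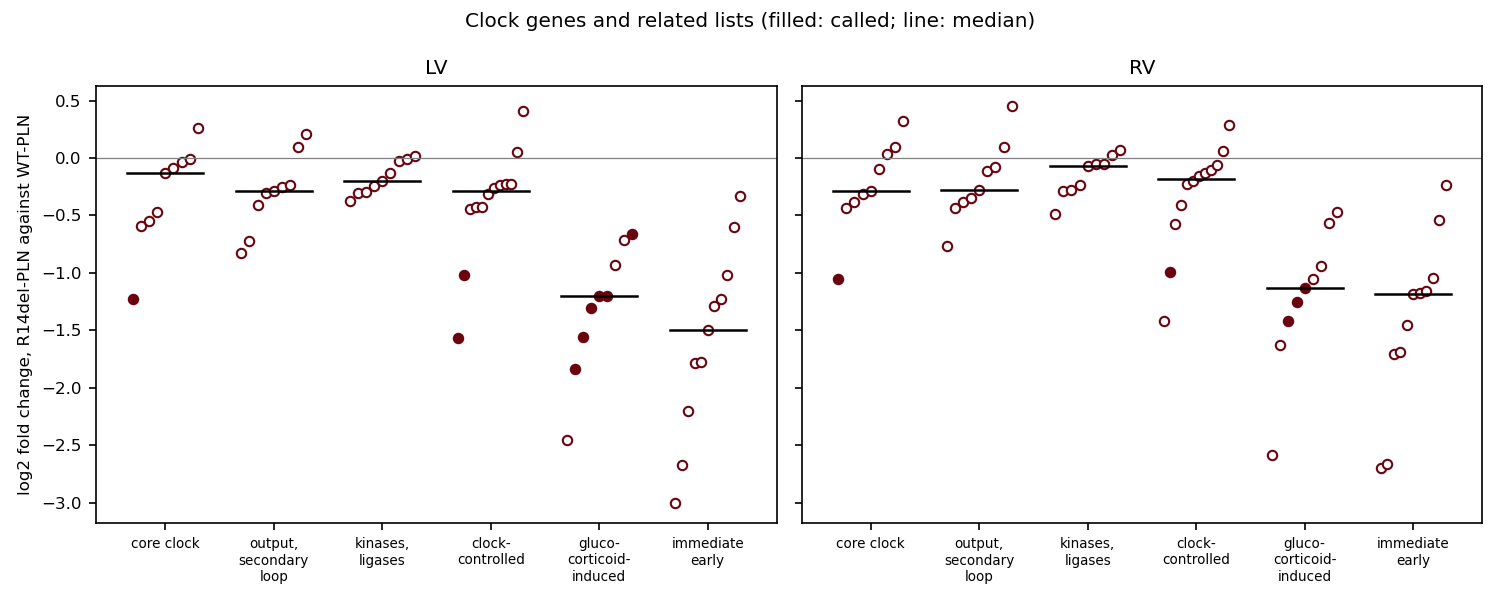
Log2 fold change of R14del-PLN against WT-PLN for the 9 clock genes tested and for each tested gene of 5 related lists, LV left and RV right; filled circles passed the test and black lines are medians. Per1 is the filled clock gene, and the glucocorticoid-induced and immediate early genes lie below 0 throughout, with medians between -1.49 and -1.14.

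Markers of blood and atrial tissue are given beside these values. No marker of endothelium, fibroblasts, macrophages, smooth muscle and pericytes, brown fat or skeletal muscle was called for genotype in either ventricle. At an unadjusted p under 0.05 in limma, 1 of 5 endothelial markers was higher in each ventricle, and 1 of 5 fibroblast markers was lower in LV. The rest of these lists had none, against 9.60% of tested genes in LV and 6.22% in RV. The summed level of 5 red cell genes was 2087 to 2316 TPM in WT-PLN and 1093 to 2142 TPM in R14del-PLN samples of LV, and 1461 to 1736 and 956 to 1368 TPM in RV. By limma, 0 of 5 were called in either ventricle, where 0.423% and 0.2% of tested genes were called lower. At an unadjusted p under 0.05, 4 of 5 were lower in LV and 3 in RV, against 7.85% and 3.40% of tested genes. The atrial marker sum was 211 to 1319 and 146 to 319 TPM in LV and 87.7 to 881 and 45.9 to 527 TPM in RV, with 0 of 5 tested markers called by limma. At an unadjusted p under 0.05 were 2 of them in LV, both lower with ranges apart, Myl7 (-4.32, adjusted p = 0.505) and Dkk3 (-1.995, adjusted p = 0.460), and 0 in RV. In LV, 7.85% of tested genes were lower at an unadjusted p under 0.05, and ranges were apart and lower for 8.47%. The part of blood or atrial tissue in the clock gene differences was not tested.

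The genes whose pattern over the 12 samples was most like that of a clock gene were listed for a member of each arm, by Pearson's r of log2(TPM + 1), as a description of samples that share genotype, heart and scaling. For Per1 they were Tob2 (0.99), Sesn1 (0.98) and Zbtb16 (0.98), the last of them among the glucocorticoid-induced genes above, and the most opposite was Rpl34-ps1 (-0.94). For Nr1d1 they were Tcf23 (0.97), Prpf40b (0.93) and Eif2s3x (0.91), with Slc2a12 the most opposite (-0.81). The WT-PLN samples numbered 1, which had almost no Y-linked RNA, had the highest Nr1d1 in both ventricles. Without them, r was computed only between clock genes, so their part in this likeness was not tested. For Arntl they were Olfr624 (0.95), Alpk1 (0.94) and Neurl1a (0.93), with Ppm1d the most opposite (-0.90). Among clock genes, Per1 was most like Per2 (0.89) and Nr1d2 (0.88), less like Cry2 (0.78) and Nr1d1 (0.70), and little like Per3 (0.38), and its r with Arntl was -0.77. Arntl had an r of -0.65 with Nr1d1, -0.73 with Nr1d2 and -0.05 with Per3. Over the 10 samples that remain without the WT-PLN samples numbered 1, Per3 had an r of 0.61 with Per1 and -0.34 with Arntl.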

How the data were processed

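RNA from 12 ventricle samples was sequenced as polyA stranded TruSeq libraries. The authors deposited TPM (length-scaled, with the same sum in every sample), which were used as deposited and hold no depth, so no counting interval could be given. The study names CLC Genomics Workbench and GRCm38; the program behind the TPM values, its annotation and strand setting are not given in the sources used here. Groups came from the labels, which do not say whether samples were separate mice within a group, so p-values measure the spread between these samples.

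limma 3.58.1 in R 4.3.3 (4 group means, trended prior, degrees of freedom 8 residual plus 5.15 prior) was fitted to log2(TPM + 1) of 12526 genes whose mean reached 0.5 TPM, with Benjamini-Hochberg adjustment over all of them, and was tested on simulated data. The members and lists were chosen with earlier results of these data known. Named genes were the 10 members, the called genes of each list or else the 2 with the smallest p, and the 3 most like and 1 least like gene per arm; 1 gene that the rule names is not reported here. Dbp, Tef, Nfil3, Bhlhe41 and overlapping genes were added after values were seen, as were ratios between paralogs, and phase ratios, list counts and correlations without the WT-PLN samples numbered 1 or R14del-PLN RV sample 3. Deviations from group means correlated between LV and RV samples with the same number at 0.66, 0.32 and 0.46 in WT-PLN hearts, so that these numbers pair, at 0.39, 0.23 and 0.05 in R14del-PLN hearts, and at -0.02 to 0.22 between genotypes. Motifs were searched in RefSeq windows, copies with BLAST 2.17.0 (95% identity over 80% of the shorter transcript), and coordinates come from GENCODE on GRCm38. Python 3.11.15, numpy 2.4.6, pandas 2.3.3, scipy 1.17.1, statmod 1.5.0 and matplotlib 3.10.9 were used. Alternatives covered pseudocounts, filters, scaling, replicate blocks, thresholds and left-out samples.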

Additional observations from a re-analysis of the deposited data

How the results depend on the processing

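Per1 in LV was called under all 25 alternatives (log2 fold change -1.37 to -1.12, adjusted p 0.000761 to 0.0387), and Per1 in RV under 21 of 25 (adjusted p 0.00131 to 0.118). With a block for each number within a genotype, Per1 was at -1.23 (limma adjusted p = 0.00417) in LV and -1.05 (limma adjusted p = 0.0157) in RV. A block for each number across genotypes ties samples of different mice, so it is not a pairing for the genotype difference. With it the limma adjusted p of Per1 was 0.00450 in LV and 0.0143 in RV. Neither block changed a clock gene's call. The number of clock genes called was 0 in RV with no filter on low values, 1 to 2 in LV and 0 to 1 in RV on leaving out samples in turn, and 2 in LV without both WT-PLN samples numbered 1. In that last setting, 1.7% of tested genes were called lower in LV. With a pseudocount of 0.1, the genotype difference in the log2 ratio of Arntl to Nr1d1 was 1.27 in LV and 1.22 in RV, and that of Arntl to Per3 was 0.74 in LV, where the groups no longer overlapped, and 0.92 in RV. Genotype differences of Arntl, Cry2, Per1, Per2, Nr1d1 and Nr1d2 kept their sign under every alternative run. Signs that turned belonged to uncalled values near 0, and the cause was not tested.

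After quantile normalization, genotype differences in LV turned to 0.069 for Clock, 0.105 for Cry1 and 0.026 for Per3, RV minus LV in WT-PLN hearts to 0.056 for Arntl, 0.028 for Clock, 0.019 for Cry1, 0.149 for Per3 and 0.168 for Nr1d2, and RV minus LV in R14del-PLN hearts to 0.025 for Cry1, 0.048 for Per1 and 0.040 for Per3. After upper quartile scaling the same values were 0.057, 0.087 and 0.016, then 0.012, 0.010, 0.0042, 0.136 and 0.156, then 0.038, 0.048 and 0.051, with Clock at 0.0061 in the last. Without mitochondrially encoded genes, Cry1 turned to 0.0046 for genotype in LV, Per3 to 0.094 and Nr1d2 to 0.102 for ventricle in WT-PLN hearts, and Clock to 0.064, Cry1 to 0.099, Cry2 to 0.033, Per1 to 0.111, Per2 to 0.038, Per3 to 0.114 and Nr1d1 to 0.053 for ventricle in R14del-PLN hearts. Without both WT-PLN samples numbered 1, Npas2 turned to -0.0046 in LV and 0.0092 in RV, Clock to -0.060 in RV, and Cry2 to -0.038 for ventricle in WT-PLN hearts.

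On leaving out each sample in turn, the genotype difference in LV ran from -0.166 to 0.063 for Clock, -0.142 to 0.077 for Cry1, -0.291 to 0.110 for Per3 and -0.0046 to 0.096 for Npas2. In RV it ran from -0.060 to 0.121 for Clock, -0.058 to 0.0092 for Npas2 and -0.156 to 0.035 for Per3. RV minus LV ran from -0.062 to 0.092 for Cry2, -0.233 to 0.168 for Per3 and -0.093 to 0.025 for Nr1d2 in WT-PLN hearts. In R14del-PLN hearts it ran from -0.037 to 0.111 for Arntl, -0.169 to 0.053 for Clock, -0.129 to 0.090 for Cry1, -0.141 to 0.102 for Per1, -0.160 to 0.0054 for Per2 and -0.105 to 0.026 for Per3.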
